A study of Saccharomyces cerevisiae with 10 samples.

Results

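Most of the genes described here code for ribosome biogenesis factors of Saccharomyces cerevisiae, the proteins that build the ribosome but are not part of it. All were chosen by name: every gene with a symbol of UTP, NOP, RRP, NOC, DBP or ENP followed by a number, and with at least 1 probe set assigned to that gene alone. A name does not fix a role, and DBP5 acts mainly in mRNA export. The whole set is called the biogenesis genes here. The rule gave 66 of the 5656 genes with such a probe set, measured by 84 of 6504 probe sets. Among the 66 were 18 UTP, 18 RRP, 16 NOP, 9 DBP, 3 NOC and 2 ENP genes. All 66 were bright enough to be tested.

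Ribosome assembly starts in the nucleolus, where RNA polymerase I transcribes a long precursor of the ribosomal RNAs. The UTP proteins assemble on this transcript with the U3 small nucleolar RNA to form the small subunit processome. Fibrillarin (NOP1) and its partners NOP56 and NOP58 carry guide RNAs that direct methylation of the RNA, DEAD-box helicases remodel RNA and protein contacts, and the NOC and other NOP proteins act mostly on the large subunit. The RNA exosome, which includes several RRP proteins, trims and removes precursor fragments. In laboratory yeast many genes of ribosome biogenesis are known as a coordinately expressed group, the Ribi regulon, whose mRNAs drop quickly in many stresses.

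The samples were commercial baker's yeast grown in fed-batch culture, compressed, laid on aluminium trays and dried in an oven by air blown at 37 degrees. Cells dried for 1, 2, 4 or 8 h were compared with cells taken at 0 h, with 2 arrays at each of the 5 times and 10 arrays in all. Poly(A) RNA was measured on Affymetrix S98 yeast arrays, and the duplicates were stated to be independent. All groups shared the strain, whose name and ploidy are not given in the sources used here, and no group was kept warm without drying. Heat, hours in the oven and loss of water therefore cannot be told apart.

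A level is given here as log2 of the signal over the median signal of its array, so 0 is the array median and 1 is 2-fold above it. The floor was 0.1 of the median, or -3.32. Levels of different probe sets are not compared, since probes differ in brightness. A change is a difference of such levels, with limma's standard error (SE, n = 2 arrays per time), and its p-value was adjusted over all 5365 genes tested, with a threshold of 0.05.

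The arrays differed in quality. Median signals ran between 23.6 and 115.4, with the lowest on 8 h replicate 1 and 2 h replicate 1. The ratio of the actin 3′ to 5′ probe sets, a sign of RNA or cDNA shortening, was 5.38 on 0 h replicate 1, 6.64 on 2 h replicate 1 and 6.44 on 8 h replicate 1, and between 2.62 and 3.90 on the other 7 arrays. The 66 biogenesis genes correlated between the duplicates with r between 0.877 (8 h) and 0.959 (0 h), across genes, which are not independent replicates. At 8 h, 11 of the 66 genes lay over 1 log2 unit apart on the duplicates, as did 14.2% of all genes tested. Of 15 haploid and mating genes, 13 were bright enough to test and 0 passed the threshold in any comparison with 0 h. They leaned above 0 h, with 13 of 13 changes above 0 at 2 h (median 0.86), where both dried arrays lay above both 0 h arrays for 10 of 13, and 12 of 13 above 0 over the dried times (median 0.57). Their summed level ran between 10.96 and 24.1 times the array median on the dried arrays, with the highest on 2 h replicate 1, and was 8.52 and 12.3 at 0 h. Of 15 sporulation genes, 11 were tested and 0 passed, with summed levels between 5.74 and 7.15 on the dried arrays and 6.52 and 6.53 at 0 h. The part of array quality and of these cell states in the results below was not tested, except where values without the arrays concerned are given.

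Of the 66 biogenesis genes, 65 showed no change past the threshold from 0 h at any time of air drying. Only DBP3, which codes for a DEAD-box helicase of precursor ribosomal RNA processing, passed the threshold against 0 h, and only at 2 h, where it was 0.451 times its 0 h level. After 1 h, 0 of the 66 genes passed, against 2.61% of all genes tested. After 2 h, 1 of 66 passed, against 1.51% of all genes in either direction and 0.69% for genes that fell. After 4 h and 8 h, 0 of 66 passed, against 1.45% and 0.951% of all genes. The mean of the 4 dried times gave 0 of 66, against 2.11% of all genes, and an F test over the 4 times also gave 0 of 66, against 3.28%. All these tests used limma with Benjamini-Hochberg adjustment. At an unadjusted p under 0.05, 1, 10, 2 and 6 of the 66 genes stood out after 1, 2, 4 and 8 h in limma, against 13.9%, 13.1%, 10.7% and 9.26% of all genes. Likewise 4 did so in the mean of the dried times, against 11.8% of all genes, and 6 in the F test, against 16.2%. The single gene at 1 h was NOC4, those at 4 h were NOP8 and NOP9, and those in the mean of the dried times were DBP2, NOP56, RRP3 and UTP23, all listed here for that p alone.

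The changes were mostly under 2-fold and leaned below 0. A change of 2-fold or more was estimated for 0 of the 66 genes after 1 h, 3 after 2 h (DBP3, NOC2 and UTP7), 1 after 4 h (NOP9) and 1 after 8 h (RRP3), against 6.92%, 8.42%, 6.52% and 6.93% of all genes. A log2 change below 0 was found for 42 of the 66 genes after 1 h, 46 after 2 h, 39 after 4 h and 45 after 8 h, against 46.8%, 54.5%, 47.8% and 48.6% of all genes. The median change was -0.12 after 1 h, -0.16 after 2 h, -0.07 after 4 h and -0.17 after 8 h. Over all genes tested, the medians were 0.04, -0.05, 0.02 and 0.01 at the same times. The 4 comparisons share their 0 h arrays, so they are not separate observations of that lean. Between duplicate arrays, the median of the 66 genes had a standard deviation of 0.113, pooled over the times, similar in size to the shifts at single times. At 8 h the lean below 0 was lost without 1 array: without 8 h replicate 1 the median was 0.01, with all genes at 0.07. Without the 3 arrays of high actin ratio it was 0.03, with all genes at 0.11. In both cases it was still below the median of all genes.

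The design limits what absence of a call can mean. The SE of a single change had a median of 0.32 over the 66 genes and ran between 0.23 and 0.80. The 95% interval lay wholly within a 2-fold change either way for 38 of the 66 genes after 1 h, 30 after 2 h, 30 after 4 h and 35 after 8 h, compared with 44.3%, 46.3%, 48.7% and 50.8% of all genes. For the mean of the 4 dried times it did so for 49 of 66, against 68% of all genes. For those genes a sustained 2-fold change was outside the interval, and for the others a change of that size was not excluded by it.

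**Figure D1:**
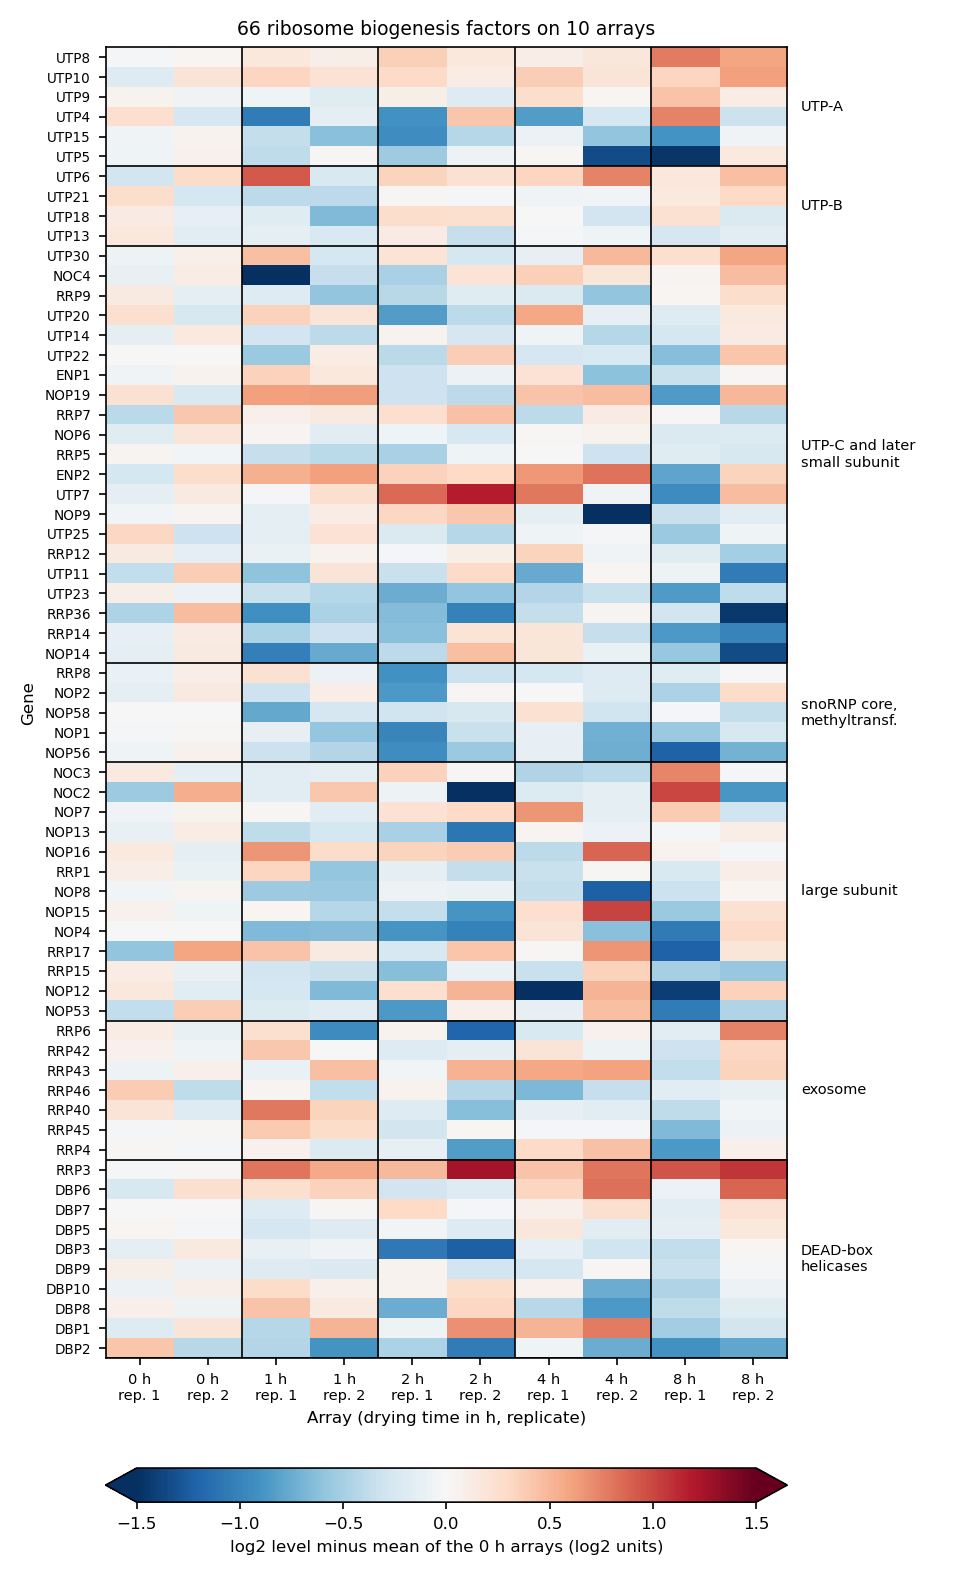
Level of each of the 66 genes on each of the 10 arrays, minus its mean over both 0 h arrays (colour, log2 units), with genes in rows grouped by role and arrays in columns in order of drying time. Most cells are pale, and colours stop at the ends of the scale. The 3 values farthest below 0 h, for NOP9 (4 h replicate 2), NOC2 (2 h replicate 2) and NOP12 (4 h replicate 1), are at the floor.

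Array by array, both 1 h arrays lay below both 0 h arrays for 24 of the 66 genes (22.8% of all genes) and above them for 10 (29.4% of all genes). After 2 h, 24 genes lay below (24.4% of all genes) and 9 above (18.6%). After 4 h, 12 lay below (18.8%) and 12 above (25.5%), and after 8 h, 18 lay below (16.9%) and 5 above (19.3%). All 8 dried arrays lay below both 0 h arrays for 4 genes, NOP1, NOP56, UTP15 and UTP23, a pattern shown by 3.88% of all genes. They lay above both 0 h arrays for 2 genes, RRP3 and UTP8, as for 4.49% of all genes. Both of these counts were near the background, and UTP15 is named only for this pattern, after its values were seen. UTP15, a UTP-A protein, had levels of 0.55 and 0.66 at 0 h, 0.25 and -0.02 after 1 h, -0.33 and 0.17 after 2 h, 0.52 and 0.01 after 4 h, and -0.29 and 0.55 after 8 h. The 24, 24 and 18 genes below 0 h after 1, 2 and 8 h were 36.4%, 36.4% and 27.3% of the 66, above the shares of all genes, and no test of that excess was made. The mean was lowest at 0 h for 5 of the 66 genes, after 1 h for 12, after 2 h for 21, after 4 h for 10 and after 8 h for 18, compared with 20.4%, 17.7%, 26.7%, 15.6% and 19.6% of all genes.

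The only call was in the DEAD-box helicases. DBP3 had levels of 1.32 and 1.62 at 0 h, 1.36 and 1.42 after 1 h, 0.40 and 0.25 after 2 h, 1.36 and 1.18 after 4 h, and 1.10 and 1.51 after 8 h. Both 2 h arrays lay below the other 8 arrays, and the 4 h and 8 h levels overlapped those at 0 h. The 2 h change was -1.15 ± 0.25 (SE, n = 2 arrays per time, limma adjusted p = 0.0332), with a 95% interval between -1.69 and -0.61. The call was lost in 11 of 21 alternative analyses. Over all 21, the change lay between -1.38 and -0.996 and limma's adjusted p between 0.0156 and 0.293. Leaving out any 1 array of 0, 1 or 2 h ended the call in limma, with an adjusted p between 0.062 and 0.293, the highest without 0 h replicate 2. It was also lost without the 3 arrays of high actin ratio, at -1.38 with an adjusted p of 0.0537 in limma.

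Other helicases did not pass at any time. DBP2, a helicase of RNA processing and mRNA assembly as well as ribosome biogenesis, had levels of 4.03 and 3.19 at 0 h, 3.17 and 2.71 after 1 h, 3.14 and 2.56 after 2 h, 3.55 and 2.87 after 4 h, and 2.70 and 2.83 after 8 h. The 0 h arrays were themselves 0.84 apart in this gene, and the 8 h change was -0.85 ± 0.33 (limma adjusted p = 0.414). RRP3, a helicase of small subunit processing, had levels of -0.91 and -0.88 at 0 h, -0.09 and -0.33 after 1 h, -0.41 and 0.35 after 2 h, -0.47 and -0.09 after 4 h, and 0.05 and 0.18 after 8 h. Every dried array lay above both 0 h arrays, in the opposite direction to most of the group. Its change was 1.01 ± 0.35 at 8 h (adjusted p = 0.304) and 0.79 ± 0.28 over the dried times (adjusted p = 0.215), and both missed the threshold in limma. DBP5, which acts mainly in mRNA export from the nucleus, had levels of 2.81 and 2.76 at 0 h, 2.54 and 2.59 after 1 h, 2.74 and 2.60 after 2 h, 2.95 and 2.63 after 4 h, and 2.64 and 2.94 after 8 h. Its 8 h change was 0.00 ± 0.23, with an interval between -0.50 and 0.51. Across the 10 helicases, 6 had a change below 0 at 2 h and 6 at 8 h, with medians of -0.12 and -0.17. Without the 2 dimmest arrays these medians were -0.11 and 0.003.

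The snoRNP core proteins and ribosomal RNA methyltransferases were the role group with values below 0 most regularly. All 5 had a log2 change below 0 after 2, 4 and 8 h, with medians of -0.62, -0.23 and -0.20, and 0 of 5 passed the threshold. All 5 were also below 0 at these times with scaling to the 75th percentile and with quantile normalization. Without the 2 dimmest arrays, 4 of 5 were below 0 at 2 h and the median was -0.33. The 3 dried times share the 0 h arrays, and 2 h replicate 1, of high actin ratio, was the lowest array for NOP1, NOP2 and RRP8.

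NOP56, a core protein of the box C/D particles, had levels of 1.14 and 1.28 at 0 h, 0.88 and 0.77 after 1 h, 0.27 and 0.65 after 2 h, 1.08 and 0.47 after 4 h, and -0.01 and 0.49 after 8 h. All 8 dried arrays lay below both 0 h arrays. The 8 h change was -0.96 ± 0.29, or 0.513 times the 0 h level, with limma's adjusted p of 0.211. It was -0.78 without the 3 arrays of high actin ratio, where limma's adjusted p was 0.544.

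NOP1, the fibrillarin methyltransferase of the same particles, had levels of 3.38 and 3.42 at 0 h, 3.28 and 2.82 after 1 h, 2.40 and 3.07 after 2 h, 3.27 and 2.67 after 4 h, and 2.84 and 3.16 after 8 h. All dried arrays again lay below the pair at 0 h, and the dried arrays differed among themselves by as much as 0.87. Its 2 h change was -0.66 ± 0.29 and its 8 h change -0.40 ± 0.29. NOP58, the partner of NOP56, had levels of 5.59 and 5.59 at 0 h, 4.82 and 5.34 after 1 h, 5.30 and 5.35 after 2 h, 5.81 and 5.30 after 4 h, and 5.56 and 5.23 after 8 h, by its brightest probe set. The 4 h arrays lay on both sides of 0 h, and the 8 h change was -0.20 ± 0.31.

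The base methyltransferases of the large subunit RNA gave the smallest 8 h changes of this group. NOP2, a cytosine methyltransferase, had levels of 2.06 and 2.33 at 0 h, 1.89 and 2.29 after 1 h, 1.33 and 2.22 after 2 h, 2.20 and 1.99 after 4 h, and 1.72 and 2.47 after 8 h. RRP8, an adenine methyltransferase, had levels of 1.52 and 1.73 at 0 h, 1.86 and 1.54 after 1 h, 0.72 and 1.30 after 2 h, 1.36 and 1.43 after 4 h, and 1.45 and 1.62 after 8 h. At 2 h both arrays of RRP8 lay below the other 8, with a change of -0.62 ± 0.26 (limma adjusted p = 0.314), and at 8 h the groups overlapped. NOP2 overlapped between 0 h and every dried time.

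**Figure D2:**
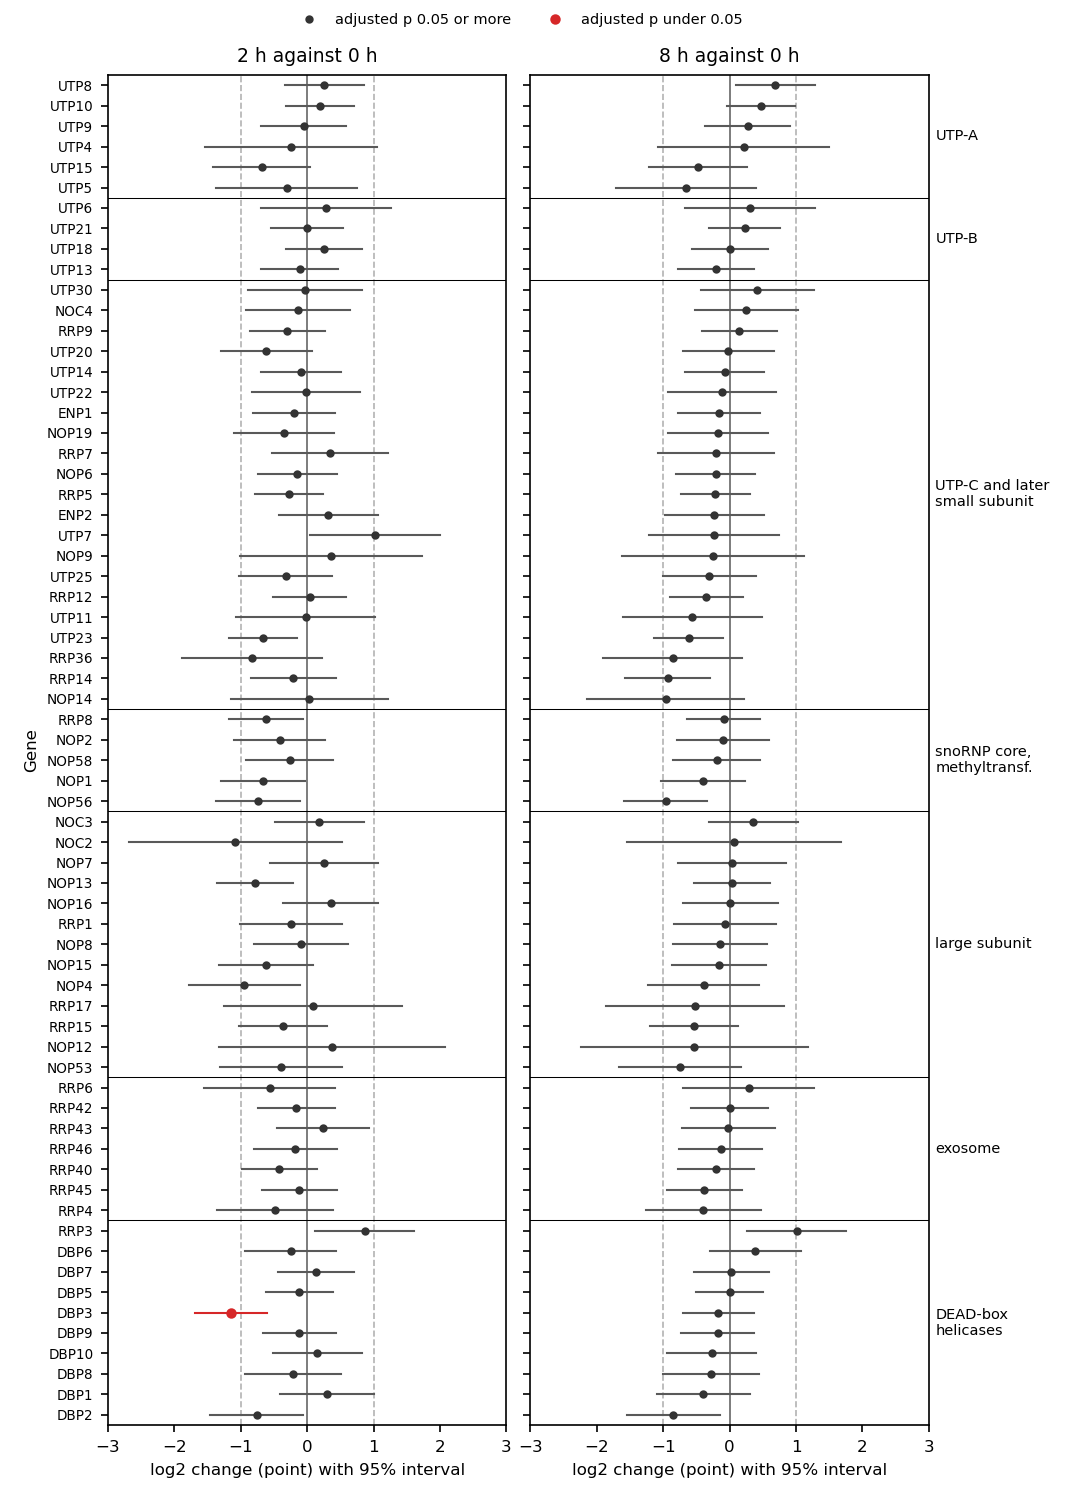
Log2 change of each of the 66 genes, with its 95% interval (bars), at 2 h against 0 h (left) and 8 h against 0 h (right), with genes grouped by role and ordered within a role by the 8 h change. DBP3 at 2 h, in red, is the only gene with an adjusted p under 0.05, and dashed lines mark a 2-fold change either way.

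The UTP-A proteins, which bind the start of the precursor transcript, showed no common direction. Of 6 genes, 4 had a change below 0 at 2 h and 2 at 8 h, with medians of -0.15 and 0.24, and 0 passed. UTP8 had levels of -0.17 and -0.10 at 0 h, 0.02 and -0.04 after 1 h, 0.23 and 0.02 after 2 h, -0.03 and 0.04 after 4 h, and 0.65 and 0.46 after 8 h. Every dried array lay above both 0 h arrays, by little except at 8 h, where the change was 0.69 ± 0.28 (limma adjusted p = 0.465). UTP10, the large scaffold protein of the complex, had levels of 2.05 and 2.44 at 0 h, 2.57 and 2.46 after 1 h, 2.53 and 2.35 after 2 h, 2.61 and 2.43 after 4 h, and 2.57 and 2.86 after 8 h. Its 8 h change was 0.47 ± 0.24, and the 0 h arrays differed by 0.38.

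UTP5 had the lowest 8 h value of the UTP-A group, at -0.66 ± 0.49, but its 8 h arrays were 1.60 apart. Its levels were 0.36 and 0.48 at 0 h, 0.04 and 0.44 after 1 h, -0.12 and 0.34 after 2 h, 0.44 and -0.93 after 4 h, and -1.04 and 0.56 after 8 h. UTP4, a dim gene, had levels of -0.79 and -1.30 at 0 h, -2.09 and -1.19 after 1 h, -1.96 and -0.63 after 2 h, -1.88 and -1.31 after 4 h, and -0.30 and -1.37 after 8 h. Both genes had duplicates that spread wider than any difference between their group means.

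For the UTP-B proteins, another module of the processome, 0 of 4 genes passed. They had medians of 0.13 at 2 h and 0.12 at 8 h, and 3 of 4 had 95% intervals wholly within 2-fold at each of these times. UTP13 had levels of 0.89 and 0.56 at 0 h, 0.58 and 0.49 after 1 h, 0.85 and 0.37 after 2 h, 0.70 and 0.66 after 4 h, and 0.47 and 0.56 after 8 h, and its 8 h change of -0.20 ± 0.27 was the lowest of the 4. UTP6 had the highest, at 0.30 ± 0.46, with levels of -1.39 and -0.84 at 0 h, -0.20 and -1.34 after 1 h, -0.79 and -0.89 after 2 h, -0.80 and -0.37 after 4 h, and -0.96 and -0.66 after 8 h. Neither gene separated 8 h from 0 h on its arrays beyond the spread of its duplicates.

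The UTP-C and later small subunit factors formed the largest role group, with 21 genes and 0 calls. At 8 h, 18 of 21 had a change below 0, with a median of -0.21. Without the 2 dimmest arrays, of which 8 h replicate 1 enters this comparison, the count was 11 of 21 and the median -0.06. After 2 h, 15 of 21 were below 0, with a median of -0.14, and without these arrays 11 of 21, with a median of -0.07.

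RRP5, a long RNA-binding protein needed for both subunits, had levels of 2.04 and 1.96 at 0 h, 1.65 and 1.59 after 1 h, 1.51 and 1.93 after 2 h, 1.99 and 1.69 after 4 h, and 1.81 and 1.75 after 8 h. Its 8 h change was -0.21 ± 0.24, with an interval between -0.73 and 0.30. RRP9, a protein specific to the U3 particle, had levels of 1.39 and 1.13 at 0 h, 1.06 and 0.67 after 1 h, 0.84 and 1.08 after 2 h, 1.04 and 0.67 after 4 h, and 1.29 and 1.53 after 8 h. It was below 0 h on both arrays at 1, 2 and 4 h and overlapped it at 8 h. RRP12, an export factor of pre-ribosomes, had levels of 1.31 and 1.05 at 0 h, 1.08 and 1.23 after 1 h, 1.16 and 1.27 after 2 h, 1.52 and 1.13 after 4 h, and 1.00 and 0.67 after 8 h. ENP1, which is associated with the late precursor of the small subunit, had levels of 1.16 and 1.27 at 0 h, 1.56 and 1.38 after 1 h, 0.90 and 1.13 after 2 h, 1.43 and 0.60 after 4 h, and 0.88 and 1.23 after 8 h. The 8 h changes of RRP12 and ENP1 were -0.35 ± 0.26 and -0.16 ± 0.29, no larger than the widest gap between duplicates of each gene, although both 8 h arrays of RRP12 lay below 0 h.

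UTP22, a subunit of UTP-C, had levels of 0.40 and 0.39 at 0 h, -0.16 and 0.51 after 1 h, -0.01 and 0.76 after 2 h, 0.15 and 0.17 after 4 h, and -0.25 and 0.82 after 8 h, with an 8 h change of -0.11 ± 0.38. The lowest 8 h value in this group was that of NOP14, a processome factor, at -0.96 ± 0.55, and the highest that of UTP30 at 0.42 ± 0.40. NOP14 had levels of -1.23 and -0.97 at 0 h, -2.13 and -1.86 after 1 h, -1.49 and -0.65 after 2 h, -0.92 and -1.19 after 4 h, and -1.67 and -2.44 after 8 h. It lay below 0 h on both arrays at 1 h and at 8 h but not between. UTP30 had levels of -0.78 and -0.63 at 0 h, -0.25 and -0.97 after 1 h, -0.50 and -0.96 after 2 h, -0.83 and -0.21 after 4 h, and -0.45 and -0.11 after 8 h. NOP9, a small subunit RNA-binding factor, had levels of -0.38 and -0.29 at 0 h, -0.48 and -0.23 after 1 h, -0.03 and 0.07 after 2 h, -0.49 and -3.32 after 4 h, and -0.67 and -0.50 after 8 h. Its 4 h change of -1.57 came from 1 array at the floor, 4 h replicate 2.

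A few genes were picked out after their values were seen, for an unadjusted p under 0.05, and none of them passed. UTP23, a small subunit processome factor, had levels of 2.39 and 2.23 at 0 h, 1.98 and 1.88 after 1 h, 1.57 and 1.72 after 2 h, 1.87 and 1.98 after 4 h, and 1.46 and 1.93 after 8 h. All dried arrays lay below 0 h, with a change over the dried times of -0.51 ± 0.19 (limma adjusted p = 0.258). RRP14, which takes part in the assembly of both subunits, had levels of 1.46 and 1.71 at 0 h, 1.11 and 1.28 after 1 h, 0.95 and 1.79 after 2 h, 1.76 and 1.23 after 4 h, and 0.72 and 0.57 after 8 h, with an 8 h change of -0.93 ± 0.30 (limma adjusted p = 0.235). UTP7, another processome factor, had the largest positive change at 2 h, 1.02 ± 0.46, and -0.24 ± 0.46 at 8 h.

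**Figure D3:**
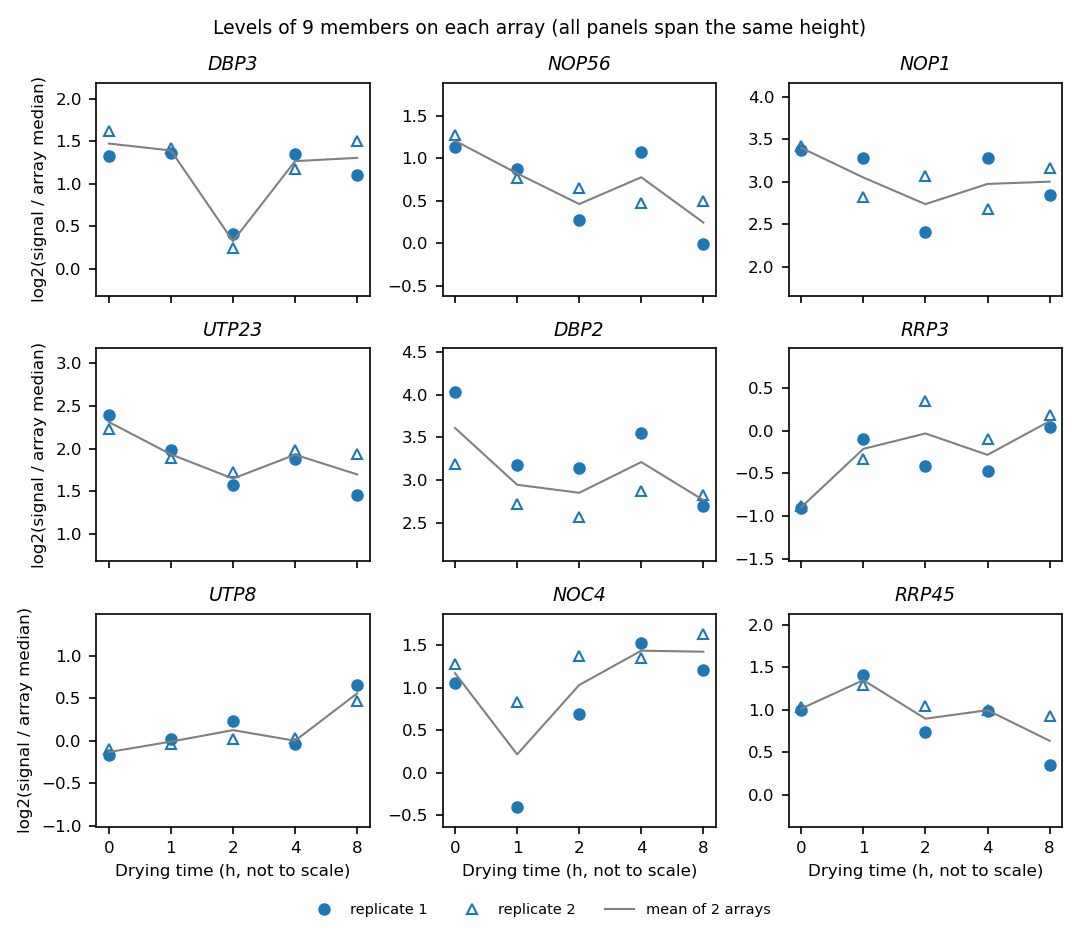
Levels (log2 of signal over array median) of 9 genes at each drying time, with replicate 1 as filled circles, replicate 2 as open triangles and lines through the means of 2 arrays. DBP3 is lowest at 2 h and overlaps its 0 h levels at 4 and 8 h, while RRP3 and UTP8 lie above 0 h on all dried arrays.

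The large subunit assembly factors also gave 0 calls among 13 genes. Their medians were -0.19 after 1 h, -0.24 after 2 h, -0.02 after 4 h and -0.15 after 8 h. Without the 2 dimmest arrays they were -0.09 after 2 h and 0.02 after 8 h. NOC3, which acts in large subunit assembly and in DNA replication, had levels of 0.35 and 0.09 at 0 h, 0.05 and 0.08 after 1 h, 0.56 and 0.24 after 2 h, -0.24 and -0.19 after 4 h, and 0.95 and 0.20 after 8 h, and its 8 h change of 0.36 ± 0.31 was the highest of the group. NOP53, a late large subunit factor, had the lowest, at -0.75 ± 0.43, with levels of -0.63 and 0.12 at 0 h, -0.46 and -0.42 after 1 h, -1.11 and -0.18 after 2 h, -0.37 and 0.19 after 4 h, and -1.30 and -0.70 after 8 h. The 0 h arrays of NOP53 differed by 0.75, as much as the change itself.

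NOC2 and NOP12, both dim, could not be judged. NOC2, the partner of NOC3, had levels of -1.78 and -0.70 at 0 h, -1.40 and -0.84 after 1 h, -1.32 and -3.32 after 2 h, -1.44 and -1.37 after 4 h, and -0.24 and -2.11 after 8 h. NOP12, a large subunit RNA-binding factor, had levels of -1.27 and -1.58 at 0 h, -1.68 and -2.08 after 1 h, -1.18 and -0.92 after 2 h, -3.32 and -0.91 after 4 h, and -2.84 and -1.07 after 8 h. Each was at the floor on 1 array, and the SE of their changes was 0.75 and 0.80. After its values were seen, NOP13 was picked out too: its 2 h change was -0.78 ± 0.27 (limma adjusted p = 0.191), with levels of 0.53 and -0.07 at 2 h, against 0.91 and 1.12 at 0 h. At 8 h NOP13 stood at 0.99 and 1.11, overlapping 0 h. NOP4, picked out in the same way, had a larger 2 h change of -0.95 ± 0.39 (limma adjusted p = 0.304). Its levels were 0.86 and 0.83 at 0 h, 0.19 and 0.20 after 1 h, -0.04 and -0.17 after 2 h, 1.03 and 0.22 after 4 h, and -0.22 and 1.13 after 8 h. The 4 h and 8 h arrays of NOP4 lay on both sides of 0 h.

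Among the exosome subunits, 0 of 7 genes passed. Of the 7, 6 had a change below 0 at 2 h and 5 at 8 h, with medians of -0.18 and -0.13. Without the 2 dimmest arrays these medians were -0.42 and 0.08. Without the 3 arrays of high actin ratio the 8 h median was 0.27. For the mean of the dried times, all 7 had 95% intervals wholly within 2-fold either way. RRP6, the nuclear exonuclease, had levels of 0.37 and 0.16 at 0 h, 0.50 and -0.67 after 1 h, 0.32 and -0.92 after 2 h, 0.04 and 0.33 after 4 h, and 0.09 and 1.01 after 8 h, with an 8 h change of 0.29 ± 0.46, the highest of the 7. RRP4, a subunit of the RNA-binding cap, had levels of -0.40 and -0.43 at 0 h, -0.35 and -0.62 after 1 h, -0.54 and -1.25 after 2 h, -0.12 and 0.02 after 4 h, and -1.28 and -0.34 after 8 h, with the lowest 8 h change, -0.39 ± 0.41. The duplicates of RRP6 at 1 h and 2 h lay over 1 log2 unit apart, more than any of its changes.

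Within the drying series, 8 h was also compared with 1 h, without the 0 h arrays. A change at 1 h that did not last enters this comparison with its sign reversed. None of the 66 genes passed (0 of 66, against 3.45% of all genes tested), with 6 at an unadjusted p under 0.05 in limma, against 18.2% of all genes. The 95% interval lay wholly within 2-fold for 29 of 66, against 41.4% of all genes. The median change was -0.06, the same as the -0.06 over all genes. Both 8 h arrays lay below both 1 h arrays for 17 genes (27.5% of all genes) and above them for 13 (21.8%). Chosen after its values were seen, NOC4, a small subunit factor, came nearest: it had levels of 1.21 and 1.63 at 8 h, against -0.40 and 0.83 at 1 h, a change of 1.21 ± 0.36 (limma adjusted p = 0.0830). At 0 h it had 1.06 and 1.28, so the 1 h arrays, and 1 h replicate 1 above all, were the low ones. The exosome core subunits RRP40 and RRP45, picked out in the same way, had changes of -0.77 ± 0.27 and -0.71 ± 0.26 (limma adjusted p = 0.126 and 0.159). Alternatives changed results here: with the replicate number as a block, NOC4 passed (limma adjusted p = 0.0449). Leaving out 8 h replicate 2 kept only 8 h replicate 1 for that time, the dimmest array and of high actin ratio. The changes of ENP2, NOP19 and RRP45 were then -1.36, -1.48 and -0.999. On 8 h replicates 1 and 2 their levels were -0.66 and 0.45, 0.07 and 1.42, and 0.35 and 0.92. In the analysis of all 10 arrays the changes of ENP2 and NOP19 were -0.80 and -0.80 (limma adjusted p = 0.232 and 0.237).

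Several probe sets were present for 4 of the 66 genes. The 2 probe sets of DBP2 had 8 h changes of -0.85 and -1.03. NOP58 had 4, and its change depended on the probe set. The 8 h change was -0.20 by the brightest, -0.34 by the next and -0.96 by the dimmest. The remaining one gave the largest difference, with levels of 2.90 and 2.97 at 8 h, against 3.80 and 4.08 at 0 h (limma adjusted p = 0.246). None of the 4 passed the threshold. UTP20 had 10 probe sets and UTP22 had 6, and apart from the brightest of each, these were dim, with mean levels under -1, and were not used for the gene's level. No probe set of these 4 genes passed the threshold, so a disagreement in direction past it could not appear. The estimates did differ in direction. Over the probe sets tested, the 8 h change lay between -0.29 and 2.24 for UTP20 and between -0.81 and 1.04 for UTP22. By the brightest it was -0.02 and -0.11.

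Of 107 further genes of the pathway, named from general knowledge, 106 had a usable probe set. After 1, 2 and 4 h, 0 of 106 passed in limma, with 6, 13 and 10 at an unadjusted p under 0.05, against 13.9%, 13.1% and 10.7% of all genes. After 8 h, 10 of 106 had such a p in limma, against 9.26% of all genes. After 8 h, 1 fell, as did 0.447% of all genes tested. In the mean of the dried times, 2 fell, as did 0.746% of all genes. PXR1, a small nucleolar protein that stimulates a helicase of ribosome assembly, had levels of 3.38 and 3.14 at 0 h, 2.52 and 2.29 after 1 h, 2.28 and 2.61 after 2 h, 2.62 and 2.50 after 4 h, and 2.18 and 2.21 after 8 h. All its dried arrays lay below 0 h, with a change of -0.86 ± 0.19 over the dried times (limma adjusted p = 0.0250) and of -1.06 ± 0.24 at 8 h (limma adjusted p = 0.0486). These calls held in 13 of 20 and 6 of 21 alternative analyses in limma, with an adjusted p between 0.00689 and 0.461 over the dried times and between 0.0296 and 0.472 at 8 h. Leaving out either 0 h array, either 1 h array or 4 h replicate 2 ended both calls, and leaving out 4 h replicate 1 or either 8 h array ended that at 8 h. Both calls were also lost without the 3 arrays of high actin ratio, and that at 8 h without the 2 dimmest arrays. NSR1, the yeast nucleolin, had levels of 2.73 and 2.50 at 0 h, 1.90 and 1.65 after 1 h, 1.33 and 1.96 after 2 h, 1.59 and 1.72 after 4 h, and 1.98 and 2.05 after 8 h, and a change over the dried times of -0.84 ± 0.20 (limma adjusted p = 0.0454). Its call held in 10 of 20 alternatives, with limma's adjusted p between 0.0114 and 0.533, and leaving out any 1 of the 0, 1 or 4 h arrays ended it. The NSR1 call was also lost without the 3 arrays of high actin ratio. The medians of the 106 genes were -0.16 after 1 h, -0.21 after 2 h, -0.01 after 4 h and -0.25 after 8 h. Without the 2 dimmest arrays they were -0.13 after 2 h and -0.07 after 8 h, with all genes at -0.05 and 0.07.

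**Figure D4:**
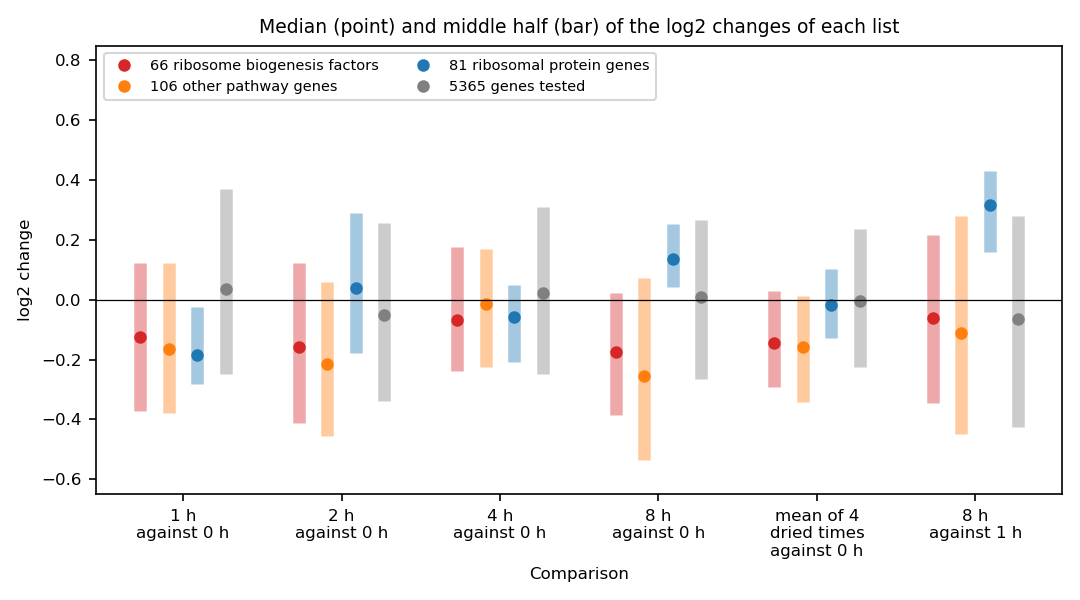
Median (points) and middle part, from lower to upper quartile (bars), of the log2 changes in 6 comparisons, for the biogenesis genes chosen by name, the further pathway genes, the cytosolic ribosomal protein genes and all genes tested. Against 0 h, the medians of the biogenesis genes lie between -0.17 and -0.07 at the single times, and the ribosomal protein genes between -0.18 and 0.14.

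Cytosolic ribosomal proteins are the structural products that these factors assemble. The 81 of their genes with a probe set assigned to that gene alone also gave 0 calls in any comparison. Genes with only probe sets assigned to several genes are not among the 81. At 1, 2, 4 and 8 h, 1, 2, 1 and 0 of the 81 genes had an unadjusted p under 0.05 in limma, against 13.9%, 13.1%, 10.7% and 9.26% of all genes. Their medians were -0.18 after 1 h, 0.04 after 2 h, -0.06 after 4 h and 0.14 after 8 h. The 2 h and 8 h values depended on the processing. With scaling to the 75th percentile they were 0.14 and 0.15, and with quantile normalization -0.07 and 0.01. Without the 3 arrays of high actin ratio they were -0.002 and 0.06, and without the 2 dimmest arrays -0.09 and -0.03. The biogenesis genes and the ribosomal protein genes stood 0.31 apart at 8 h, at -0.17 and 0.14, and 0.04 apart without these 2 arrays, at 0.01 and -0.03. Probe sets for duplicated ribosomal protein genes can bind near-identical copies, so these values may mix family members.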

How the data were processed

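Poly(A) RNA of 10 baker's yeast samples, 2 at each of 5 drying times, was measured on Affymetrix Yeast Genome S98 arrays. The authors deposited signal intensities on a linear scale, with a column for each array. Per the submitters' processing notes, GCOS (Affymetrix software) was used, and its version is not given in the sources used here. The table of ratios that the labels describe, with its floor, scaling and division by 0 h, is another table and was not used here. Without detection calls, dim signal and background cannot be separated. The number of arrays limits the precision.

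Of 9335 probe sets, 60 were controls. The platform annotation gave 1 gene for 6504 of the remaining 9275, several for 328 and none for 2443. Gene identifiers gave current symbols from the RefSeq R64 table. Signals were divided by the array's median signal of all non-control probe sets, values under 0.1 were set to 0.1, and log2 was taken. The brightest probe set stood for its gene, and genes with a mean level under 0.2 of the median (-2.32) were left out, which left 5365 of 5656. Group means were fitted to all 10 arrays with limma 3.58.1 in R 4.3.3, followed by eBayes with an intensity trend. The two-sided p-values were corrected over the 5365 genes after Benjamini and Hochberg. The 95% intervals are limma's and are not adjusted. The scripts were run on simulated data with known changes. The only condition set was that the mean estimated change be near the change added, which does not test how often changes are called. Duplicates stated to be independent may share a culture or a drying run, and then p-values measure a narrower spread.

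Samples were grouped by the time in their titles. The genes described, the role lists, the further pathway genes, the haploid, sporulation and ribosomal protein lists and the tests were chosen with earlier results of these data known. Genes were named by rule: those past the threshold, the highest and lowest 8 h change of each role, 15 textbook genes, genes at the floor on any array, and genes with probe sets in opposite directions past the threshold. Any other is said to have been chosen after its values were seen. The alternatives were other scalings, a higher floor, no filter, the mean of all probe sets, no trend, array weights, only the compared groups, a replicate block, and leaving out the dimmest arrays or each array in turn. Leaving out the 3 arrays with the highest actin ratio was added after seeing the data. Promoter sequences were not analysed here. Coordinates are not printed, since no genome build is named in the sources used here.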

Additional observations from a re-analysis of the deposited data

How the results depend on the processing

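With scaling to the 75th percentile, the median change of the 66 genes was -0.27 at 1 h against 0 h, where the median of all genes was -0.11 in place of 0.04, and 0.093 at 8 h against 1 h. The 1 call at 2 h, DBP3, became 0 calls with a floor of 0.2, with no filter, with no intensity trend, with only the compared groups or without the 3 arrays of highest actin ratio, and 2 calls (DBP3 and NOP13) without the 2 dimmest arrays. The F test then gave 2 calls (DBP3 and NOP15). The medians without the 2 dimmest arrays were 0.0073 at 8 h against 0 h and 0.11 at 8 h against 1 h, and without the 3 arrays of highest actin ratio 0.031 and 0.11. Leaving out each array in turn gave 0 to 1 calls at 2 h, 0 to 1 at 4 h (NOP9, without 4 h replicate 1, which left its floored array), 0 to 3 at 8 h against 1 h (ENP2, NOP19 and RRP45, without 8 h replicate 2) and 0 to 2 in the F test. The median then ran between -0.29 and 0.0073 at 8 h against 0 h (without 8 h replicate 2 and without 8 h replicate 1), and between -0.20 and 0.11 at 8 h against 1 h. A lone array left in a group was assumed to vary like the other groups, and without 8 h replicate 2 it was the dimmest array, 8 h replicate 1. Relative to all genes, the median stayed below 0 in every alternative at 1 h, 2 h, 8 h and over the dried times. It lay between -0.11 and 0.00 at 4 h and between -0.11 and 0.12 at 8 h against 1 h. Alternatives that left out only arrays of neither group compared could not move it. At 1 h, the median without the 2 dimmest arrays was -0.12, with all genes at 0.04, the same as with all 10 arrays. The replicate numbers were shared by all times in the titles, but deviations correlated above 0.1 for only 4 of 10 pairs of times (between -0.06 and 0.17), so they were not taken to pair the samples. With the replicate number as a block, 1 gene (NOC4) was called at 8 h against 1 h. Over 29 genes named by rule, 3613 of 3625 alternative values stayed on the same side of the threshold, 11 lost the call (all DBP3) and 1 gained it (NOP9). Of the 174 values over all 10 arrays, only DBP3 at 2 h was past the threshold. Nearly all of the 3613 were therefore uncalled values that stayed uncalled, which is no sign of robust results. Leaving out an array of neither group compared could not move a change. The sign turned in 175 of the 3625, each a change that was not called, and in 12 of these the change over all 10 arrays exceeded its SE. Where a call or median moved, the cause was not tested beyond the arrays or genes left out. Dim genes such as NOC2 and NOP12 are limited by signal over background.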
